A study of Mus musculus with 12 samples.

Results

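The genes described here encode the pore-forming and accessory subunits of voltage-gated sodium and calcium channels and the main families of potassium channels. Members were chosen by gene symbol alone: Scn followed by a number and a or b, Cacna1, Cacna2d, Cacnb, Cacng, and the potassium channel series Kcna, Kcnb, Kcnc, Kcnd, Kcnh, Kcnj, Kcnk and Kcnq. The rule found 100 Ensembl identifiers among the 40690 in the deposited gene table, under 98 symbols, since Cacng6 and Cacng7 are each listed under 2 identifiers. Of these, 14 belong to sodium channels, 27 to calcium channels and 59 to potassium channels. No measured value entered the choice.

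Polyadenylated RNA was sequenced from whole-brain homogenates of 12 C57BL/6J mouse embryos at embryonic day 14.5, in 4 groups of 3. In the LC1 experiment, embryos lacking LC1 (LC1 knockout, embryos 7, 22 and 71), a non-coding element upstream of the neuronal transcription factor gene Pou3f2, were compared with LC1 wild types (embryos 6, 26 and 73). The RKI experiment set embryos carrying a human variant of that element on both chromosomes, introduced by knock-in (RKI homozygous, embryos A1, A10 and A18), against RKI wild types (embryos A2, A9 and A16). The 6 LC1 embryos were all female, and each RKI group held 1 female and 2 males. Mutant and wild-type embryos were matched for sex and litter per the labels' protocol, but no label names a litter. The change in both lines is made in the whole animal, is not in a channel gene, and cannot be read from gene counts, so the genotypes were not checked here.

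Voltage-gated channels open when the membrane is depolarised and carry the currents that start, shape and end the action potential. In sodium and calcium channels a single large alpha subunit forms the pore and beta, alpha2delta or gamma subunits set its trafficking and gating, whereas most potassium channels are built from separate pore subunits that assemble around the pore. Inward rectifiers (Kcnj) and tandem-pore channels (Kcnk) hold the resting potential, and the voltage-gated series (Kcna, Kcnb, Kcnc, Kcnd, Kcnh, Kcnq) repolarise the cell. At mid-gestation the brain is a mixture of dividing progenitors and young neurons, and many of these channels are known to be expressed first in the neurons. In whole-brain RNA, fewer cells of a type and less RNA per cell cannot be told apart.

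What makes the 59 potassium channel genes a single superfamily is the selectivity filter, a short stretch of the pore loop that lets potassium through and holds back sodium. It was located in the coding sequence of GENCODE M21 transcripts (mouse build GRCm38) as threonine or serine, then valine, isoleucine or leucine, then glycine, then tyrosine, phenylalanine or leucine, then glycine. All 59 symbols had a coding transcript with this motif. Each of the 45 members outside Kcnk carried it exactly 1 time. Of the 14 Kcnk members, whose subunits hold a pair of pore loops in tandem, 12 carried it 2 times, and Kcnk1 and Kcnk7 carried 1 copy that met the rule. The sequences below show 45 coding bases, 5′ to 3′, around the filter of the member with the highest level in 6 of the 8 potassium series, with the 15 filter bases in capitals, so that the shared codons can be compared. Those of Kcnd3 and Kcnk2 run across an exon junction, so their genomic span includes an intron.
Kcna3 (exon 1, chr3:107037596-107037640, plus strand): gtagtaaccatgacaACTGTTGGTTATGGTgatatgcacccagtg
Kcnc1 (exon 2, chr7:46427958-46428002, plus strand): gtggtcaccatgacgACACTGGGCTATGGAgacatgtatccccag
Kcnd3 (exons 1 and 2, chr3:105459899-105658632, plus strand): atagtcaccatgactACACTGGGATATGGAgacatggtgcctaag
Kcnh2 (exon 7, chr5:24325540-24325584, minus strand): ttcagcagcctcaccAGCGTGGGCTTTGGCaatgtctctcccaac
Kcnj11 (exon 2, chr7:46099481-46099525, minus strand): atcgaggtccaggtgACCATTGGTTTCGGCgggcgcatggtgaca
Kcnk2, first filter (exons 3 and 4, chr1:189258876-189295615, minus strand): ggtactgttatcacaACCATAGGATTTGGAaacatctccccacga
Kcnk2, last filter (exons 5 and 6, chr1:189243025-189256610, minus strand): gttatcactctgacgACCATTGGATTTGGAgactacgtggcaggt

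Total counts ran from 18192984 to 26566769 per library, and channel genes took 0.358% (A16) to 0.421% (A9) of them. The low-count filter passed 84 of the 100 identifiers and 16002 genes in all. The 16 that did not pass were Kcna7, Kcna10, Kcnj1, Kcnj14, Kcnk4, Kcnk7, Kcnk15, Kcnk16, Kcnk18, Scn4a, Scn7a, Cacng8 and both identifiers of Cacng6 and Cacng7. All 15 pan-neuronal markers, such as Tubb3 and Map2, and all 12 radial glia and progenitor markers, such as Sox2 and Pax6, were measured. Library A16, an RKI wild type, stood apart from the other 11: it had the lowest summed level of channel genes and of pan-neuronal markers and the highest of proliferation markers, with values given below. It stood apart most in the midbrain and hindbrain list, whose 7 tested markers summed to 11.6 CPM (counts scaled by library total) in A16 and to between 21.1 and 32.5 CPM elsewhere. Their median log2 deviation from the mean of all libraries was -2.22 in A16 and lay between -0.27 and 0.40 in the others. Of the 14 genes fixed for that list, Hoxb2, Hoxb3, Hoxa5 and Hoxb5 were at 0 counts in every library of the gene table.

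By summed level, calcium channel genes led when the accessory series were counted, which the potassium symbols do not include. Levels between genes are compared in RPKM, a read count scaled by library total and transcript length, which corrects for transcript length. The 27 calcium channel identifiers summed to 351.4 RPKM on average over the 12 libraries (326.8 to 378.4), the 59 potassium channel identifiers to 196.1 RPKM (173.0 to 213.1) and the 14 sodium channel identifiers to 77.3 RPKM (68.8 to 83.8). The pore subunits alone summed to 76.1 RPKM for calcium (Cacna1) and 35.1 RPKM for sodium channels, both below the potassium sum. Most of the calcium sum came from Cacng (118.2 RPKM) and Cacnb (105.5 RPKM). That sum counts Cacng4, which, as described below, encodes a regulatory protein of AMPA receptors. It holds Cacng7 and Cacng8 at 0, though their transcripts averaged 30.4 and 6.74 RPKM. The most abundant members came from the accessory series: Cacng4 (103.8 RPKM), Cacnb3 (76.0 RPKM), Scn3b (35.9 RPKM), Cacnb1 (24.5 RPKM) and Cacna2d2 (23.7 RPKM). Cacng4 stood at the 98.1 percentile of the protein-coding genes tested. The plot of leading members by subfamily shows each of these levels in all 12 libraries.

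**Figure D1:**
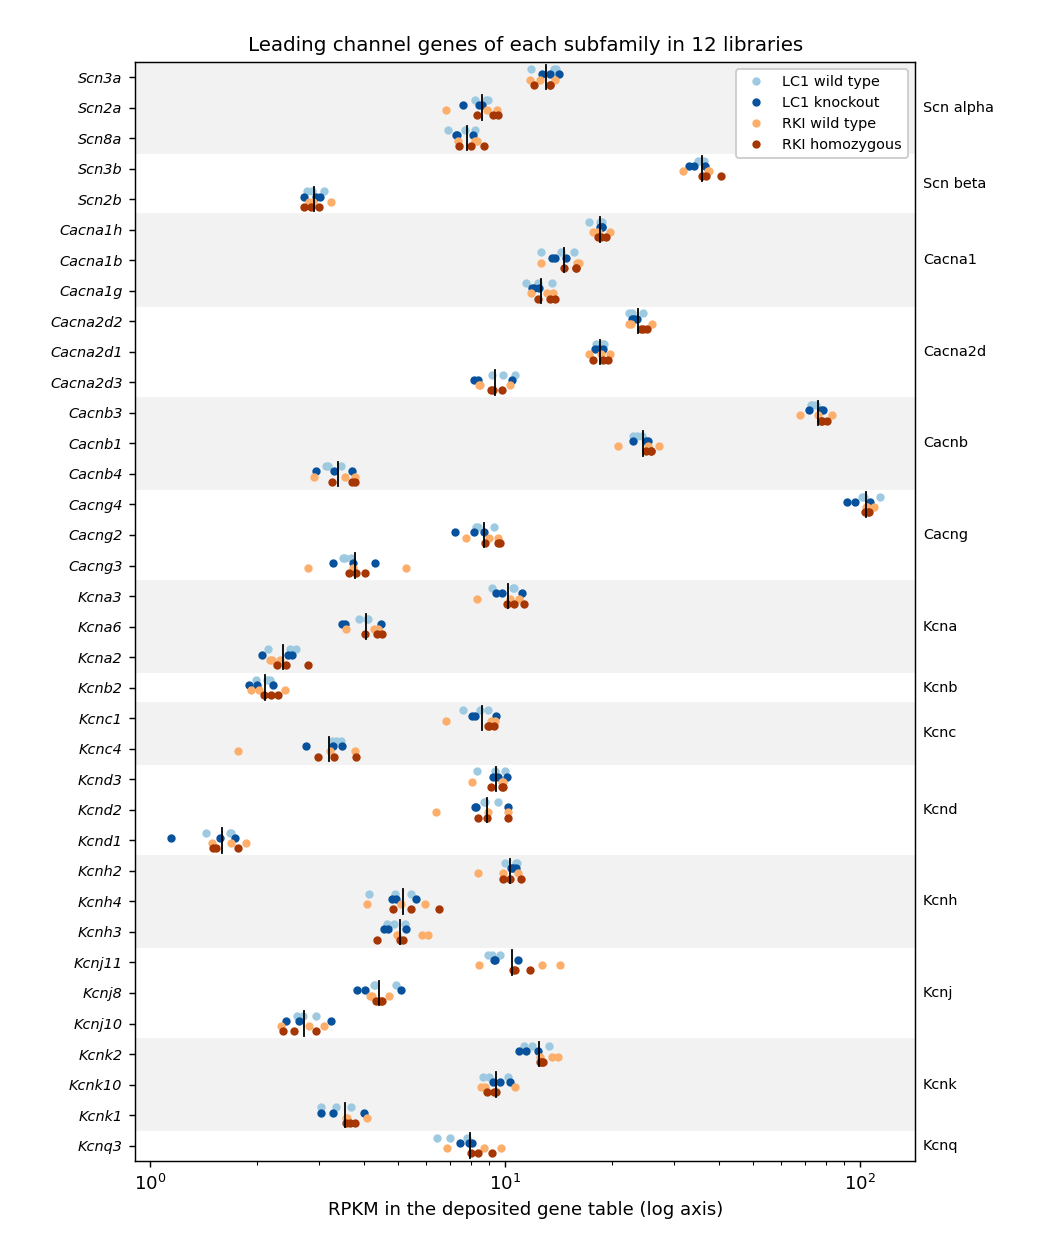
RPKM in the deposited gene table (x axis, log scale) for up to 3 leading members of each channel subfamily (y axis), 1 point per library coloured by group, with the mean of 12 libraries as a black bar. Cacng4, Cacnb3 and Scn3b lie far above the other members of their subfamilies in every library, and the 4 groups overlap in most rows.

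Among the sodium channel alpha subunits, which form the pore, Scn3a led. Its level ran from 11.8 RPKM through a median of 13.4 to 14.2. Scn2a ran from 6.84 through 8.73 to 9.53 RPKM, and Scn8a, a channel of the axon initial segment in mature neurons, from 6.93 through 7.88 to 8.71. Scn3a was above Scn2a in 12 of 12 libraries with no overlap of the ranges and a median ratio of 1.56. Scn2a and Scn8a overlapped, with Scn2a higher in 11 of 12 libraries and a median ratio of 1.07.

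The remaining alpha subunits were lower. Scn1a, the main alpha subunit of fast-spiking interneurons later in life, ran from 1.61 to 2.23 RPKM, and Scn2a exceeded it by a median of 4.36 times. Scn9a, known from sensory neurons, ran from 1.70 to 2.32 RPKM. Scn10a and Scn11a, both channels of peripheral sensory neurons, stayed at or below 0.240 and 0.180 RPKM. Scn4a, the skeletal muscle channel, had at most 3 counts in any library. A cluster of 5 alpha subunit genes lies on chromosome 2 (Scn3a, Scn2a, Scn1a, Scn9a and Scn7a, positions 65457118 to 66784914 on GRCm38), and their mean levels within it ran from 13.1 RPKM for Scn3a to 0.0268 RPKM for Scn7a.

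The beta subunits are single-span proteins that bind the alpha subunit and act in cell adhesion. Scn3b ran from 31.8 through 36.1 to 40.7 RPKM and held 85.0% of the summed level of the 4 beta genes. Scn2b ran from 2.71 to 3.24 RPKM. Scn4b was low, at 0.160 to 0.309 RPKM and 20 to 35 counts per library.

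Of the calcium channel pore subunits (Cacna1), 8 of 9 exceeded a mean of 1 RPKM. The T-type channel gene Cacna1h, which encodes a low-voltage-activated pore, ran from 17.2 through 18.6 to 19.8 RPKM. The presynaptic N-type gene Cacna1b ran from 12.6 through 14.8 to 16.2 RPKM, and the T-type gene Cacna1g from 11.5 through 12.4 to 13.8. Cacna1h was above Cacna1b in every library without overlap (median ratio 1.25), whereas the ranges of Cacna1b and Cacna1g overlapped although Cacna1b was higher in 12 of 12 libraries. With the deposited transcript RPKM summed per gene instead, Cacna1g led (24.9 RPKM) and Cacna1h came next (22.3 RPKM), so the order of these T-type genes depends on the table used. The R-type gene Cacna1e averaged 10.3 RPKM, the P/Q-type gene Cacna1a 5.85 RPKM, and the L-type genes Cacna1d and Cacna1c 5.64 and 5.13 RPKM. The retinal L-type gene Cacna1f had 5 to 16 counts per library.

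Accessory calcium channel subunits were each dominated by 1 or 2 genes. Cacnb3, which binds the pore subunit from inside the cell and promotes its surface expression, ran from 67.9 through 76.9 to 83.6 RPKM and held 72.1% of the summed beta subunit level, a median of 3.09 times Cacnb1. Cacna2d2 and Cacna2d1 are the alpha2delta genes whose extracellular products bind gabapentin-type drugs. Cacna2d2 ran from 22.3 to 25.9 RPKM and Cacna2d1 from 17.2 to 19.8 RPKM without overlap. By summed transcript RPKM the level of Cacna2d1 was 7.04, so its place is less certain than that of Cacna2d2 (20.4 RPKM). Cacna2d3 averaged 9.37 RPKM and Cacna2d4 0.0585 RPKM.

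The gamma series holds muscle calcium channel subunits and the transmembrane AMPA receptor regulatory proteins, which carry glutamate receptors to the synapse. Cacng4, a regulatory protein of this kind, ran from 92.2 through 104.2 to 113.7 RPKM. Cacng2, the stargazin gene, ran from 7.25 through 8.77 to 9.70 RPKM, and Cacng4 exceeded it by a median of 12 times. Cacng3 averaged 3.77 RPKM, Cacng5 1.35 RPKM and the muscle subunit gene Cacng1 0.572 RPKM.

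Cacng7 and Cacng8, also regulatory proteins of AMPA receptors, differed between the deposited tables. Both were listed at 0 counts in all 12 libraries of the gene table, Cacng7 under both of its identifiers. The deposited transcript table gave Cacng7 28.8 to 32.5 RPKM, with 1584 to 2608 estimated counts per library, and the same values under each identifier. For Cacng8 it gave 5.89 to 7.98 RPKM with 283 to 478 estimated counts. By the transcript table Cacng7 was therefore above Cacng2 in every library, while the gene table holds no read for it.

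The transcript level of Cacng7 was 29.1 ± 0.178 RPKM (SD, n = 3) in LC1 wild types, 30.1 ± 1.64 in LC1 knockouts, 31.1 ± 0.603 in RKI wild types and 31.4 ± 1.4 in RKI homozygotes. Transcript Cacng7-001 had a log2 fold change of 0.04 (SE 0.067) in LC1 knockouts and of 0.02 (SE 0.067) in RKI homozygotes, with an adjusted p of 1.0 in each by edgeR's quasi-likelihood test over 47772 transcripts. The genes lie side by side on chromosome 7 of GRCm38, Cacng7 at 3332955 to 3368221, Cacng8 at 3390683 to 3415648 and Cacng6 at 3424195 to 3435667. Their neighbour Myadm, also listed under 2 identifiers, had at most 11 counts in the gene table and 14.2 RPKM in the transcript table. Of 13232 identifiers at 0 in every library of the gene table, 138 protein-coding ones had at least 1 RPKM in all libraries by transcripts, and 37 of these carried a symbol with at least 2 identifiers. The cause of the disagreement was not tested.

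**Figure D2:**
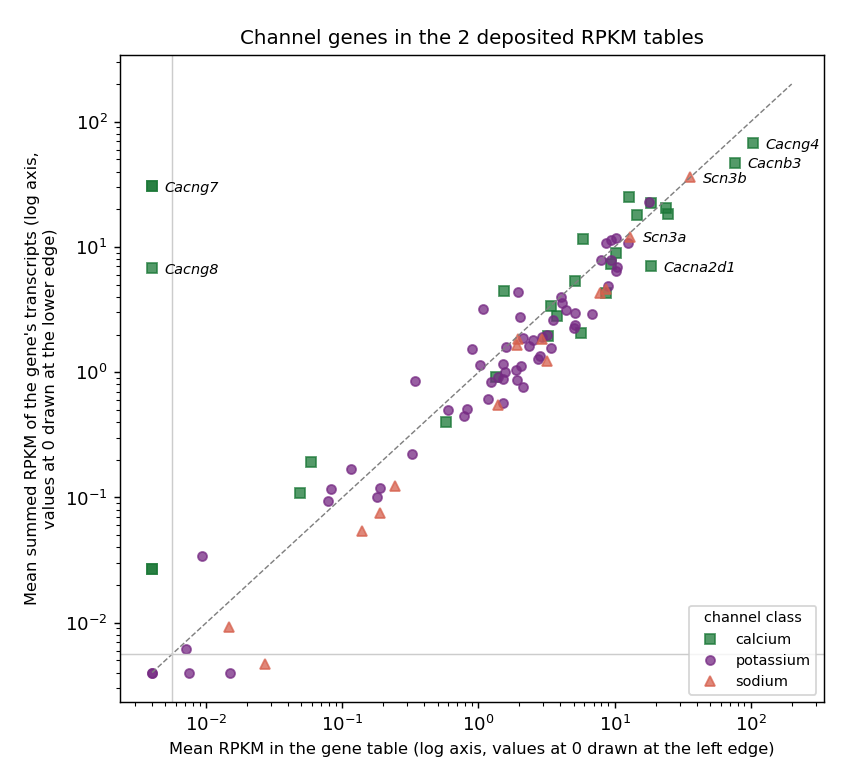
Mean RPKM over 12 libraries in the gene table (x axis, log scale) against the summed RPKM of the gene's transcripts (y axis, log scale), 1 point per channel gene identifier, coloured by the ion carried, with equality as a dashed line. Cacng7 and Cacng8 sit at the left edge, at 0 by the gene table and at 30.4 and 6.74 RPKM by transcripts, while the other labelled members lie near the line, except Cacna2d1 below it.

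The Kcna series encodes delayed rectifiers and axonal D-type channels. Kcna3 led with 8.36 through 10.4 to 11.3 RPKM, followed by Kcna6 (3.47 to 4.50 RPKM) and Kcna2 (2.07 to 2.78 RPKM). Kcna3 was a median of 2.53 times Kcna6 and did not overlap it. Kcna1, whose product limits axonal excitability, averaged 2.14 RPKM. Kcna10 was at 0 counts in all libraries and Kcna7 reached at most 3.

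The Kcnc series carries the fast repolarising current of fast-spiking cells: Kcnc1 averaged 8.63 RPKM, Kcnc4 3.20 and Kcnc2 1.5. The A-type subunits Kcnd3 (8.06 to 10.2 RPKM) and Kcnd2 (6.38 to 10.2 RPKM) overlapped, with Kcnd3 higher in 8 of 12 libraries, and Kcnd1 averaged 1.60 RPKM. In Kcnd2 and Kcnc4 the lowest value, 6.38 and 1.77 RPKM, was that of A16.

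In the Kcnh series, the ERG channel gene Kcnh2 ran from 8.41 through 10.5 to 11.1 RPKM and was a median of 2.05 times Kcnh4. Kcnh4 and Kcnh3, both of the ELK type, could not be ordered: each was the higher in 6 of 12 libraries. Kcnq3, a subunit of the muscarine-sensitive M-current that brakes repetitive firing, ran from 6.45 through 7.98 to 9.74 RPKM. Kcnq5 and Kcnq1 averaged 1.1 and 0.341 RPKM, and Kcnq1 shares exon bases with the antisense transcript Kcnq1ot1, so its reads are uncertain.

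Among the inward rectifiers, Kcnj11, the pore of the ATP-sensitive channel, ran from 8.48 through 10.1 to 14.3 RPKM. Kcnj8, the vascular pore of the same channel type and a pericyte gene, ran from 3.83 to 5.10 RPKM, below Kcnj11 in every library. Kcnj10, the glial rectifier, averaged 2.72 RPKM and Kcnj13, known from choroid plexus, 2.02 RPKM. The G-protein-gated subunits Kcnj9, Kcnj3, Kcnj5 and Kcnj6 averaged 2.06, 1.97, 1.51 and 0.891 RPKM. Of the tandem-pore leak channels, the mechanically and lipid-gated Kcnk2 ran from 10.9 through 12.5 to 14.1 RPKM and Kcnk10 of the same group from 8.57 through 9.29 to 10.7, without overlap. Kcnk1, Kcnk9 and Kcnk3 averaged 3.55, 2.93 and 2.82 RPKM.

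Spread between embryos of a group was larger for channel genes than for genes at large by the median: the within-group SD of log2 CPM had a median of 0.15 over the 84 members tested and of 0.12 over all genes tested. The largest SDs were those of Kcnj16 (0.74), Cacna2d4 (0.43), Kcnk13 (0.40), Cacna1f (0.39) and Kcnj15 (0.37), each with at most 32 counts in any library. CPM, counts scaled by the TMM-adjusted library total, are used from here on to compare libraries for the same gene. P-values below measure the spread between embryos, pooled over the 4 groups.

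In LC1 knockouts no channel gene passed the test. By edgeR's quasi-likelihood test with Benjamini-Hochberg adjustment over 16002 genes, 0 of 84 members passed 0.05, where 0 percent of all genes did. At an unadjusted p under 0.05, 0 of 84 members were found against 2.09 percent of all genes, and DESeq2 and limma-voom also found 0. Leaving out 1 library gave 0 to 3 members, with 3 without 22, 2 without A16 and 1 without 7, 26, 71, 73, A9 or A10. All genes went from 334 to 404 without 22 and 441 without A16. In the runs with 1 member they numbered between 348 (without A9) and 719 (without 73). The median log2 fold change of the members was -0.01, and that of all genes was 0.00 after rounding. Of the members, 39 were higher and 45 lower, where 48.6 percent of all genes were higher. Without knockout 7, 51 of 85 were higher, and without wild type 6, 33 of 85. For 70 members the 95% interval lay within a 1.5-fold change either way, and for 79 within a 2-fold change.

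The smallest p belonged to Kcnj3, a subunit of G-protein-gated rectifiers (chromosome 2, 55435970 to 55598145). Kcnj3 measured 9.37, 9.28 and 8.21 CPM in the LC1 wild types and 10.9, 11.1 and 10.1 CPM in the knockouts. All 3 knockouts were above all 3 wild types. The log2 fold change was 0.26 (SE 0.131, unadjusted p = 0.0652, adjusted p = 1.0 by edgeR), and an exact permutation test gave 0.10, the smallest p that 3 against 3 allows. Kcnj3 was the only member whose groups did not overlap with the knockouts higher, where 3.36 percent of all genes did so, and no member had all knockouts lower, against 3.81 percent. The exons of Kcnj3 overlap those of Gm26794.

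Kcnk13, a tandem-pore channel known from microglia, measured 0.942, 0.655 and 0.907 CPM in wild types and 0.854, 1.24 and 1.52 CPM in knockouts, from 12 to 32 counts. That gave a log2 fold change of 0.52 (SE 0.313), with overlapping groups.

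The 10 members with the smallest p also included Kcnk6 (log2 fold change -0.32), Kcnh5 (0.28), Cacng4 (-0.10), Kcnk12 (0.22), Cacna2d3 (-0.13), Kcna1 (0.11) and Kcnq3 (0.15), each with an adjusted p of 1.0 and overlapping groups. Cacng4, the most abundant member, measured 413.6, 360.0 and 365.1 CPM in LC1 wild types and 350.2, 379.8 and 329.5 CPM in knockouts. By subfamily, the median log2 fold change lay between -0.10 (Cacng) and 0.05 (Cacnb). Markers of microglia and of meninges were lower in LC1 knockouts for 10 of 10 genes each, none past the threshold. The summed microglial level was 152.0 to 195.4 CPM in wild types and 143.5 to 152.3 CPM in knockouts, and none of these markers was at 0. Their part in the values of Kcnk13 and Kcnk6 was not tested.

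**Figure D3:**
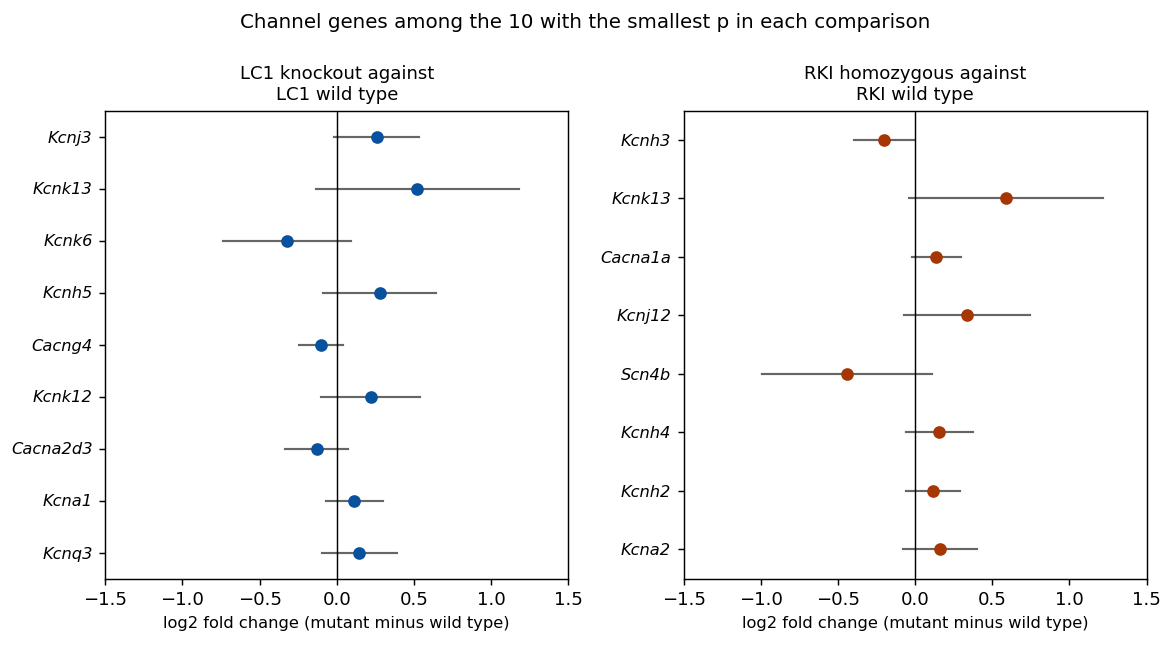
Log2 fold change of mutant against wild type with its 95% interval for channel genes among the 10 with the smallest p in each experiment, LC1 in the left panel and RKI in the right. All intervals drawn include 0 except that of Kcnh3 in the RKI experiment, and no member passed the adjusted threshold.

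In RKI homozygotes no channel gene passed the threshold either. By edgeR 0 of 84 members passed an adjusted p of 0.05, where 0 percent of all genes did. At an unadjusted p under 0.05 there was 1 member, against 1.92 percent of all genes, with 0 by DESeq2 and 1 by limma-voom. The count was 8 without A9 and likewise 8 without A10, 4 without A2, 2 without A16 and 0 without the LC1 wild type 26. The count over all genes moved with it, from 307 with all libraries to 1323 without A9, 1342 without A10 and 501 without A2, and was 260 without A16. The median log2 fold change was 0.05, against 0.00 over all genes, and 54 members were higher and 30 lower, where 50.6 percent of all genes were higher. This lean rested on wild type A16: without it 29 of 84 members were higher and the median was -0.03. In the same comparison 15 of 15 pan-neuronal, 12 of 12 GABAergic and 6 of 7 midbrain and hindbrain markers were higher, and 12 of 12 proliferation and 10 of 10 pallial neuron markers lower, none past the threshold. Their part in the lean was not tested. For 70 members the 95% interval lay within 1.5-fold and for 81 within 2-fold.

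Kcnh3, an ELK channel gene of forebrain neurons, had the smallest p. It measured 20.8, 21.9 and 17.5 CPM in RKI wild types and 18.2, 18.4 and 15.8 CPM in homozygotes. The groups overlapped, and the A16 value was the lowest of the wild types. The log2 fold change was -0.20 (SE 0.093, unadjusted p = 0.0424, adjusted p = 1.0 by edgeR), and an exact permutation test gave 0.30. Exons of Kcnh3 overlap those of Mcrs1.

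Kcnk13 measured 0.973, 0.418 and 1.04 CPM in RKI wild types and 1.30, 1.23 and 1.11 CPM in homozygotes, from 10 to 30 counts. All homozygotes were above all wild types, and A9 was the lowest library. The log2 fold change was 0.59 (SE 0.299, unadjusted p = 0.0645), with an exact permutation p of 0.10. Scn4b was the only member with all homozygotes lower: 1.32, 1.46 and 1.22 CPM in wild types and 1.17, 0.983 and 0.801 CPM in homozygotes, a log2 fold change of -0.44 (SE 0.262, unadjusted p = 0.11). Among all genes, 2.59 percent had every homozygote higher and 3.07 percent every homozygote lower, against 1 member each.

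The P/Q-type pore gene Cacna1a measured 66.9, 72.0 and 57.5 CPM in RKI wild types and 68.0, 76.6 and 71.2 CPM in homozygotes, a log2 fold change of 0.14 (SE 0.075). The inward rectifier Kcnj12 (0.33) also had A16 lowest among wild types. The 10 members with the smallest p further included Kcnh4 (0.16), Kcnh2 (0.12) and Kcna2 (0.16), each with an adjusted p of 1.0. By subfamily the median log2 fold change ran from -0.04 (Kcnh) to 0.14 (Kcnc), and all 4 Kcnc genes were higher. The 4 summed to 140.0, 147.0 and 103.3 CPM in wild types A2, A9 and A16 and to 144.1, 141.5 and 140.2 CPM in homozygotes, so A16 was far below the rest, A2 lay close to the lowest homozygote and A9 was above all homozygotes.

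**Figure D4:**
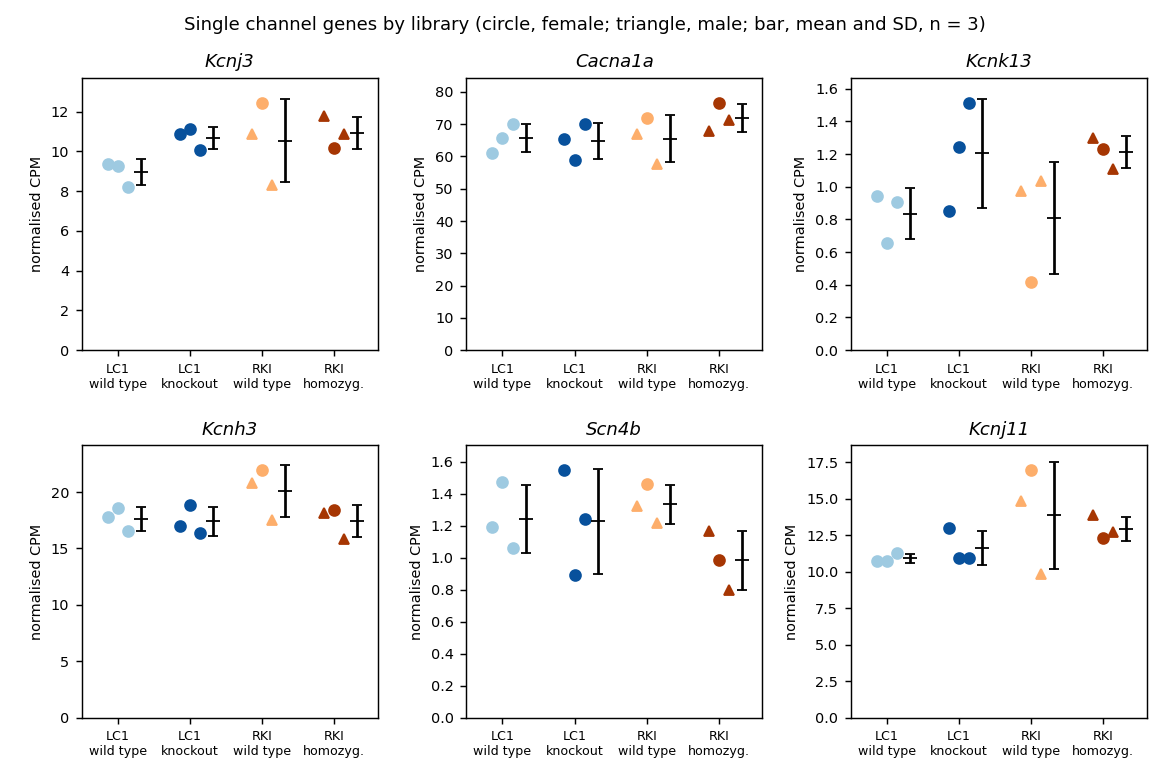
TMM-scaled CPM (y axis, from 0) of 6 channel genes in the 12 libraries by group, with circles for females, triangles for males, and the mean with its SD (n = 3) beside each group. Kcnj3 is higher in all LC1 knockouts than in the LC1 wild types, and the RKI wild types are widely spread in Kcnj3, Kcnk13 and Kcnj11.

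The LC1 and RKI effects were compared through an interaction term. Of 84 members 0 passed the adjusted threshold and 1 had an unadjusted p under 0.05, against 0 and 2.42 percent of all genes. Without A9 or without A10 the count was 7, where all genes rose in number from 388 to 959 and 958. It was 3 without 22 or A16 (all genes 454 and 404) and 2 without 71 or A2 (369 and 426). Without 6, 7, A1 or A18 it was 0 (288, 360, 271 and 296). For the mean of both effects, 0 members passed and 1 had an unadjusted p under 0.05, against 0 and 1.84 percent of all genes. That member was Kcnk13, with a mean log2 fold change of 0.56 (SE 0.216, unadjusted p = 0.0197), at 10 to 32 counts per library. By this mean 53 members were higher, where 49.1 percent of all genes were, but without A16 the number was 33 of 84 and the median -0.01. The 1 member at an unadjusted p under 0.05 became 5 without A10, 4 without A9, 3 without A2, 2 without A16 or 26, and 0 without 71. All genes went from 295 to 829, 810, 406, 255, 331 and 327 in the same order. No member had all 6 mutants above or below all 6 wild types, as 0.025 percent of all genes had above and 0.0562 percent below.

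As a list, the channel genes varied most among the RKI wild types. Each gene's log2 CPM was set against its mean over the 12 libraries, and the median of the 84 deviations was taken per library. It was -0.03, 0.00 and -0.02 in the LC1 wild types 6, 26 and 73, and -0.07, 0.00 and 0.01 in the knockouts 7, 22 and 71. Among RKI wild types it was 0.06 (A2), 0.12 (A9) and -0.18 (A16), and in the homozygotes A1, A10 and A18 it was 0.04, 0.05 and 0.06. The highest and the lowest library were thus both RKI wild types.

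By summed CPM, the pan-neuronal, proliferation and progenitor lists lay at an end of their ranges in A16 and A9. A16 did so in the midbrain and hindbrain list given above too, but not in the pallial neuron list. In A16 the 15 pan-neuronal markers summed to 10377 CPM and in the other libraries to between 11156 and 12553 CPM. The 12 proliferation markers, such as Mki67 and Top2a, summed to 1751 CPM in A16 and to between 1147 (A9) and 1404 CPM elsewhere. The 12 radial glia and progenitor markers summed to 3121 CPM in A16 and to between 2475 (A9) and 2855 CPM elsewhere. By these sums A9, with the highest channel level, had the lowest levels of both these lists and the highest of the neuronal one. By the median deviation, A18 (-0.13) was below A9 (-0.10) in the progenitor list. By sums, the LC1 embryos did not follow the pattern of A16 and A9 for neuronal markers. Among them, 6 had the lowest channel sum (3800 CPM) and the highest neuronal sum (12448 CPM). Embryo 73 had the highest channel sum (3934 CPM) and the lowest neuronal sum (11156 CPM). The channel order of the LC1 embryos depended on the measure. By the median deviation the lowest was 7 (-0.07) and the highest 71 (0.01), with 6 at -0.03 and 73 at -0.02. None of the markers in the neuronal, proliferation and progenitor lists was at 0, and their part in the channel gene values was not tested.

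**Figure D5:**
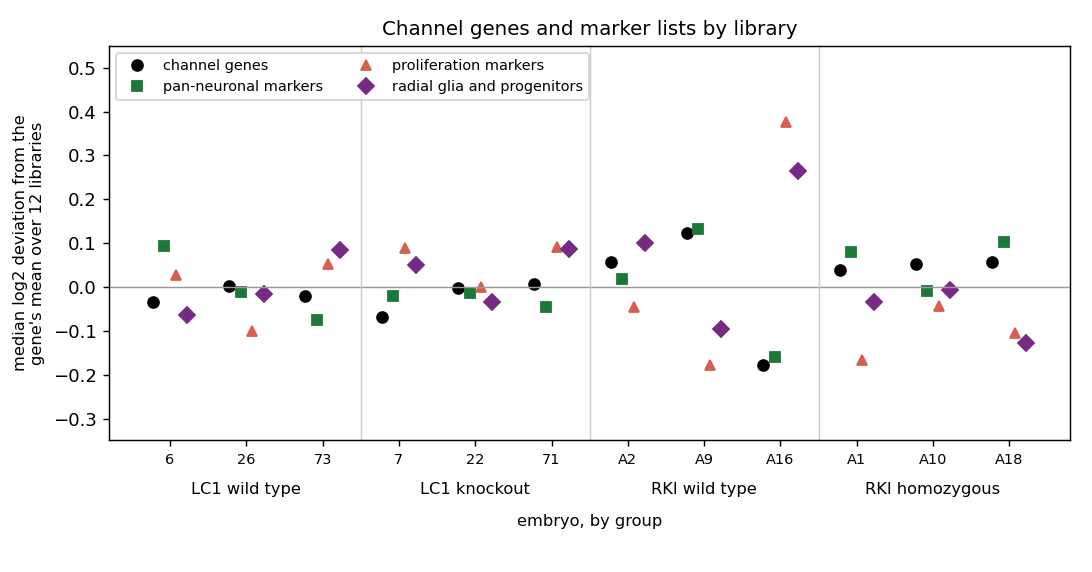
Median log2 deviation from each gene's mean over 12 libraries (y axis) for the 84 channel genes tested and for 3 marker lists, in each embryo (x axis) ordered by group. In A16 channel genes and pan-neuronal markers are lowest and proliferation and progenitor markers highest, while the 3 RKI homozygotes lie between 0.04 and 0.06 for channel genes.

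RKI and LC1 wild types were also compared, as 2 lines with nominally the same genotype, with sex as a term. Line, litter, library preparation and any batch cannot be told apart in this comparison. All LC1 embryos were female, so the sex term came from the RKI libraries alone. There the females, A9 and A10, may share a litter, so the sex term may also hold a litter difference. By edgeR 0 members passed the threshold (0.0125 percent of all genes did) and 5 had an unadjusted p under 0.05, against 3.89 percent of all genes, with 4 by DESeq2 and 5 by limma-voom. The count was 18 without A16, 11 without A10, 3 without A2 or 6 and 2 without A9, where all genes went from 623 to 1186, 1078, 505, 563 and 650. Among them were Kcnj11 (log2 fold change 0.47), Kcnh3 (0.29), Cacna1d (0.31) and Kcnh4 (0.30). Of 84 members, 65 were higher in the RKI wild types, with a median of 0.08, where 47.9 percent of all genes were. All RKI wild types were higher in 1 member, against 3.36 percent of all genes, and Kcnk9 and Cacng1 were the 2 with all lower, against 4.23 percent. Without A9 the count was 42 of 85 and the median 0.00 after rounding, so the lean depended on that library. Leaving out A9 also leaves no female RKI wild type and changes the sex term, and these were not separated. In this comparison pallial neuron markers were higher for 10 of 10 genes (median 0.14), midbrain and hindbrain markers lower for 6 of 7 (median -0.54) and microglial markers lower for 9 of 10, none past the threshold. Their part was not tested.

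Kcnj11 measured 10.7, 10.8 and 11.3 CPM in LC1 wild types and 14.9, 17.0 and 9.82 CPM in RKI wild types. The groups overlapped, since A16 was below all LC1 wild types. Its regulatory partner Abcc8, the sulfonylurea receptor, averaged 20.6 ± 2.5 CPM (SD, n = 3) in LC1 and 27.2 ± 5.62 CPM in RKI wild types (log2 fold change 0.53, SE 0.158, unadjusted p = 0.0041, adjusted p = 1.0). A9 is the 1 female among the RKI wild types. Without the sex term, 51 of 84 members were higher in RKI wild types and the median was 0.02.

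Males were compared with females within the RKI libraries, 4 against 2. The females, A9 and A10, have neighbouring embryo numbers and may share a litter, which no label names. Sex and litter therefore cannot be told apart here. By edgeR 0 members passed (0.05 percent of all genes did) and 4 had an unadjusted p under 0.05, against 5.18 percent of all genes, with 3 by DESeq2 and 5 by limma-voom. The count was 18 without A10, 11 without A2, 8 without A1 and 1 without A9, where all genes went from 829 to 1918, 1019, 736 and 421. The 4 were Kcnh4 (log2 fold change -0.36), Cacna1d (-0.31), Kcna5 (-0.38) and Cacna1a (-0.17). Of 84 members, 70 were lower in males and 14 higher, with a median of -0.11, where 49.7 percent of all genes were higher. Every male was below both females in 14 members, among them Scn8a and Scn1a, against 8.13 percent of all genes, and above both in 0, against 9.27 percent. Without A16 30 of 84 members were higher in males and without A9 41 of 85, so the size of the lean depended on these libraries. Proliferation markers were higher in males for 12 of 12 genes and pallial neuron markers for 10 of 10, while pan-neuronal markers were lower for 12 of 15 and GABAergic markers for 11 of 12, none past the threshold. Their part was not tested.

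Partners and channels outside the symbol rule formed a further list. It held 58 genes, among them Kcnip and Dpp subunits of A-type channels, Kcnab and Kcne subunits, Hcn pacemaker channels, calcium- and sodium-activated potassium channels, intracellular fibroblast growth factor homologues and the ankyrins that anchor channels. Of these 52 were tested and 0 passed in any of the 6 comparisons, against at most 0.05 percent of all genes. At an unadjusted p under 0.05 there was 1 partner for LC1, against 2.09 percent of all genes. There were 5 between the wild types and 4 between the sexes, against 3.89 and 5.18 percent. The interaction gave 0 and the mean of both effects 1, against 2.42 and 1.84 percent. The most abundant partners were Ank3 (30.7 RPKM), Cachd1 (21.1), Fgf13 (19.9), Ank2 (18.6) and Dpp6 (16.2). The leading pacemaker genes were Hcn4 (14.3 RPKM) and Hcn3 (12.7).

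In LC1 knockouts 25 partners were higher and 27 lower, where 48.6 percent of all genes were higher, with Kcne2, an accessory subunit abundant in choroid plexus, at a log2 fold change of -0.24 (SE 0.114, unadjusted p = 0.0481). The next smallest p-values were those of Kcnip3 (-0.15), Fgf11 (0.15), Cachd1 (0.10) and Stac2 (0.17). Of the partners, 40 were higher in RKI homozygotes and 12 lower, where 50.6 percent of all genes were higher. At an unadjusted p under 0.05 there were 0 partners, against 1.92 percent of all genes. A16 was also the lowest library of this list, at 2715 CPM in sum against 2770 to 3266 CPM elsewhere and a median log2 deviation of -0.17. The smallest p-values were those of Kcng4 (-0.72), Fgf12 (0.28), Hcn3 (0.13), Kcne2 (-0.18) and Dpp10 (0.21). The choroid plexus list was lower for 7 of 10 genes in LC1 knockouts and 6 of 10 in RKI homozygotes, none past the threshold. Kcne2 is itself 1 of these 10 genes and is counted among the lower ones in both, so the list is not independent of it.

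At the transcript level, 225 transcripts of channel genes were tested on rounded estimated counts. In LC1 knockouts 0 passed and 8 had an unadjusted p under 0.05, against 0 and 2.97 percent of 47772 transcripts. In RKI homozygotes 0 passed and 5 did so, against 0 and 2.45 percent. Limma-voom also passed 0 in both, with 8 and 3 at an unadjusted p under 0.05.

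Cacnb3-201, the minor coding transcript of Cacnb3, had estimates of 36.3, 41.0 and 38.9 CPM in LC1 wild types and 51.5, 47.8 and 43.2 CPM in knockouts, with no overlap and a log2 fold change of 0.29 (SE 0.079, unadjusted p = 0.0046, adjusted p = 1.0). Cacna1g-201 had 6.12, 6.27 and 7.68 CPM in wild types and 11.2, 13.6 and 8.54 CPM in knockouts, again without overlap (log2 fold change 0.73, SE 0.209). Cacna1b-008, a transcript marked for nonsense-mediated decay, gave -1.86 (SE 0.447) and Kcnh4-001 -0.83 (SE 0.285). Cacna1b-008 had the smallest p of the channel transcripts in LC1 (unadjusted p = 0.0024 by edgeR). It had 2.26, 3.58 and 1.84 CPM in wild types and 0.512, 0.947 and 0.640 CPM in knockouts. Kcnh4-001 had 2.80, 3.96 and 2.49 CPM in wild types and 1.72, 2.13 and 1.32 CPM in knockouts. Neither overlapped. The share of all transcripts without overlap is not given here.

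Several of the smallest p-values came from estimates that switch between libraries. Kcna6-201 was estimated at 3.86 and 12.4 CPM in LC1 wild types 6 and 26 and listed at 0 in wild type 73 and in all 3 knockouts. In RKI homozygotes Cacnb1-002 was estimated at 4.29, 0 and 1.83 CPM and was listed at 0 in all RKI wild types, while Cacna1d-202 was at 0, 4.99 and 5.10 CPM against 0 in all wild types. Scn1a-004, Kcnh6-004 and Scn9a-203 completed the 5 with log2 fold changes of 1.60, -3.87 and -2.35. Of 359 member transcripts, 29 from 19 members were listed at 0 in some libraries and at 1 RPKM or more in others.

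The authors' deposited tables of both comparisons gave no adjusted p below 0.937 for any of the 92 channel genes listed for LC1, nor below 0.997 for the 94 listed for RKI. In the authors' deposited table for LC1 the smallest unadjusted p was that of Kcnk18 (0.00951), which has at most 3 counts in any library and did not pass the filter used here, followed by Kcnq3 (0.0244) and Kcnj3 (0.0322). In the authors' deposited table for RKI it was that of Kcnk15 (0.0385), also at most 3 counts, and then Kcnh3 (0.049).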

How the data were processed

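The submitters' processing notes list featureCounts 1.4.5, Subread, STAR 2.0.4b, limma and edgeR. Not given in the sources used here were their roles, the genome build, the annotation and the strand setting. Deposited by the authors were whole-number counts and RPKM per gene, estimated counts and RPKM per transcript, and tables of log2 fold changes with p-values for both comparisons. The RKI sign was turned so that positive means higher in mutants. Repeated rows of an identifier were dropped.

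The main test on gene counts was edgeR's quasi-likelihood test (version 4.0.16, R 4.3.3), with TMM scaling, filterByExpr by group, robust dispersions, 1 fit of all 12 libraries with 4 group means and sex (7 residual degrees of freedom), and adjustment over all 16002 genes at 0.05. Estimated transcript counts, deposited by the authors, were rounded and tested likewise. The code was tested on simulated data. Alternatives were DESeq2 1.42.0, limma-voom (limma 3.58.1), other scalings, no filter, single experiments, no sex term, a block and each library left out.

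Members and lists were chosen with earlier results of these data known. Named were, per comparison, the 10 members with the smallest p, per subfamily the 3 with the highest level, the 5 most variable, and the 5 transcripts and 5 partners with the smallest p. Positions and filter sequences come from GENCODE M21 (GRCm38); coding sequence stands in for the planned protein stretches. Some members that meet these rules are not reported here by name.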

Additional observations from a re-analysis of the deposited data

How the results depend on the processing

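No channel gene passed the threshold under any alternative run: DESeq2, limma-voom, DESeq2 size factors, library totals, no filter, single experiments, no sex term, the block over neighbouring embryo numbers, or any library left out. Few of all genes passed either, so 0 members is near the share of all genes. Without the filter 4 of all genes passed for LC1, 26 for RKI, 17 for the interaction and 13 for the mean of both effects. In that run 28 passed between the wild types and 45 between the sexes. For RKI, 2 passed without A9 and 2 without A10. Of the values answering a comparison, 212 were labelled unchanged and 2 moved. For counts past the threshold, unchanged meant the same count, which was 0 throughout. For median fold changes it meant a shift below 0.083, the SD of the members' median level between embryos of a group. A change of sign within that limit, as for RKI without A16, was labelled unchanged. Leaving out each library in turn, the median log2 fold change of the members ran from -0.02 to 0.02 for LC1, from -0.03 (without A16) to 0.11 (without A2) for RKI, and from -0.0026 (without A9) to 0.15 (without A10) for RKI against LC1 wild types. Between these wild types, the log2 fold change of Kcnj3 ran from -0.049 to 0.49 and that of Cacng3 from -0.26 to 0.58, and between males and females that of Cacng3 ran from -0.71 to 0.12. These values of Kcnj3 and Cacng3 reversed without A9. The median of the members also changed sign without A16 for RKI, and without 7, 26, 71 or 73 for LC1, where it stayed within 0.02 of 0. The cause was not tested. Without A9 or without A10, 8 members had an unadjusted p under 0.05 for RKI, against 1 with all libraries, as all genes rose from 307 to 1323 and 1342. With transcript RPKM summed per gene, Cacna1h ranked 2 in its subfamily. No paired analysis was possible because the groups share no replicate number in the labels. A block of embryos with neighbouring numbers, which the labels do not pair, gave 0 members for LC1 and 0 for RKI. Of all genes, 0 passed in that run for LC1, 3 for RKI and 1 for the interaction. All genes at an unadjusted p under 0.05 rose from 334 to 434 for LC1 and from 307 to 410 for RKI. Depth limits Kcnk13, Kcnj16, Cacna2d4, Cacna1f and Kcnj15, with at most 32 counts, where only large differences were detectable.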
